A study of Arabidopsis thaliana with 9 samples.

Results

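The genes described here were 10 Arabidopsis thaliana genes of phosphate transport and of the response to phosphate starvation, taken by gene identifier out of the 37898 genes of a deposited FPKM table. FPKM is a level scaled to transcript length and to the sequenced fragments of a library. The 10 were the regulators PHR1 (AT4G28610), SPX1 (AT5G20150) and SPX3 (AT2G45130), the transporters PHT1;1 (AT5G43350) and PHT1;4 (AT2G38940), the exporter PHO1 (AT3G23430), the phosphatases PS2 (AT1G73010) and PAP17 (AT3G17790), the lipid enzyme SQD2 (AT5G01220) and the noncoding RNA IPS1 (AT3G09922).

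The study sequenced polyadenylated RNA of 2-week-old seedlings in 9 libraries. All plants were of the Col-0 ecotype, carried the treatment label Mock, and grew in long days (16 h light at 22 °C, 8 h dark at 18 °C). The 3 groups of n = 3 libraries were wild-type Col-0, nrpd1-3 and nrpe1-11. NRPD1 and NRPE1 encode the largest subunits of the plant RNA polymerases Pol IV and Pol V, which act in RNA-directed DNA methylation, and the series asks about functions of Pol V transcripts outside that pathway. Each mutant is a single allele. The phosphate supply of the growth medium and the number of plants per library are not given in the labels, so p-values measure the spread between these libraries, which may be technical.

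Plants take up inorganic phosphate with PHT1 transporters at the root surface, and PHO1 exports it into the xylem for the shoot. The transcription factor PHR1 binds the P1BS motif upstream of starvation genes, while SPX proteins bind inositol pyrophosphates when phosphate is plentiful and hold PHR1 back. In starved plants PHR1 targets such as IPS1, SPX1, SPX3, PS2, PAP17 and SQD2 rise, and the microRNA miR399 lowers PHO2, a ubiquitin-conjugating enzyme that removes PHO1 and PHT1 proteins.

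The sequences of this response are shown because IPS1, its relative AT4 and PHO2, which all hold sites for miR399, recur in the results. All were read from the RefSeq TAIR10.1 genome and annotation. In the mature miR399 sequences the capitals mark the seed, bases 2 to 8, which is the same GCCAAAG in both lines.
miR399a: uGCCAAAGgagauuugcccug
miR399b and miR399c-3p: uGCCAAAGgagaguugcccug
In the noncoding RNAs IPS1 and AT4 the capitals mark 3 bases that stay unpaired opposite miR399b, the feature that lets these RNAs hold miR399 without being cleaved. The IPS1 site lay at chr3:3051224-3051247 on the plus strand, and the AT4 site at chr5:895149-895172 on the plus strand. Each site had 3 mismatches to miR399b outside these capitals. The annotation used here lists both genes as protein-coding and places both sites in the coding sequence.
IPS1: uugggcaacuuCUAuccuuuggca
AT4: uugggcaacuuCGAuccuuuggca
PHO2 held 5 miR399 sites, all 5′ of its coding sequence, each with 2 mismatches and without such a bulge of 3 bases, and the one at chr2:14281884-14281904 on the minus strand is shown.
PHO2: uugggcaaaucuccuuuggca

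The P1BS motif, searched as GNATATNC, reads the same on both strands. In the 500 bases upstream of the annotated starts it was found for 3 of the 10 genes, namely SPX3, PS2 and SQD2, for 34 of 86 other listed phosphate genes (39.5%) and for 10.4% of all genes. The matches are shown with 16 bases on each side and with the motif in capitals, on the strand of the gene, at chr2:18606181-18606220 and chr2:18606304-18606343 for SPX3, at chr1:27466542-27466581 for PS2 and at chr5:90434-90473 for SQD2. A match is a description of the letters and not a measured binding site.
SPX3 distal: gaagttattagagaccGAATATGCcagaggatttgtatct
SPX3 proximal: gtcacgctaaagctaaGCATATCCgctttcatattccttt
PS2: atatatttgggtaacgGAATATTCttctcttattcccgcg
SQD2: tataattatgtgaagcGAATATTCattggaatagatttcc

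The spacing of low FPKM values placed the depth of the libraries between 1.01 and 1.25 gigabases of aligned sequence, lowest in Col-0 replicate 2. That library also held the fewest genes with at least 1 FPKM, 16802 against 17186 to 17604 in the others, and the highest share of FPKM in ribosomal RNA genes, 21.4%. NRPE1 was at 0.831, 0.843 and 0.863 FPKM in Col-0 and at 0.624, 0.254 and 0.339 in nrpe1-11. It was at 1.40, 1.28 and 1.19 in the libraries labelled nrpd1-3. NRPD1 was at 0.565, 0.489 and 1.05 FPKM in Col-0 and at 0.674, 0.670 and 0.948 in the libraries labelled nrpd1-3, which go by that label below, so its RNA did not set these libraries apart, and a gene-level value does not check whether the mutation is present. Differences below are between means of log2(FPKM + 1), which understates the change of low genes, and were tested in limma with Benjamini-Hochberg adjustment over the 18212 genes with at least 1 FPKM in at least 3 libraries. An adjusted p under 0.05 counted as a call. By this rule NRPE1 was not called in nrpe1-11 against Col-0 (limma adjusted p = 0.196). NRPD1, at 1.56, 1.98 and 2.30 FPKM in nrpe1-11, was called higher there than in Col-0 (limma adjusted p = 0.0190). NRPD1 reached 1 FPKM only in the nrpe1-11 libraries and Col-0 replicate 3, and NRPE1 only in the nrpd1-3 libraries. Each entered the test through the group where it was highest.

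PHO1 rose and PS2 fell in nrpe1-11 against Col-0, and the other 6 tested genes did not pass the test. PHO1 was 1.64-fold and PS2 4.63-fold apart between the group means, and PHT1;4 and SQD2 lay lower in nrpe1-11 without overlap of the libraries. PS2 reached 1 FPKM in 6 libraries, all Col-0 or nrpd1-3, so it passed the filter through the groups where it was higher. Without the filter on low values PS2 was not called. SPX3 and IPS1 were below the filter and were not tested. The 2 calls among 8 tested genes stand beside 21.7% of all tested genes called in this comparison (14.2% higher and 7.54% lower), so their share was near the background. The genes were chosen with earlier results of these data known, so such shares are descriptions. The 4 genes without overlap stand beside 39.4% of all tested genes. The split of all calls, 2581 higher and 1374 lower, moved with scaling, to 1184 and 2168 under median-ratio rescaling, 1625 and 1858 after quantile normalization, and 1646 and 1438 without Col-0 replicate 2. The median difference of the 8 genes was -0.01, against 0.17 over all tested genes.

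**Figure D1:**
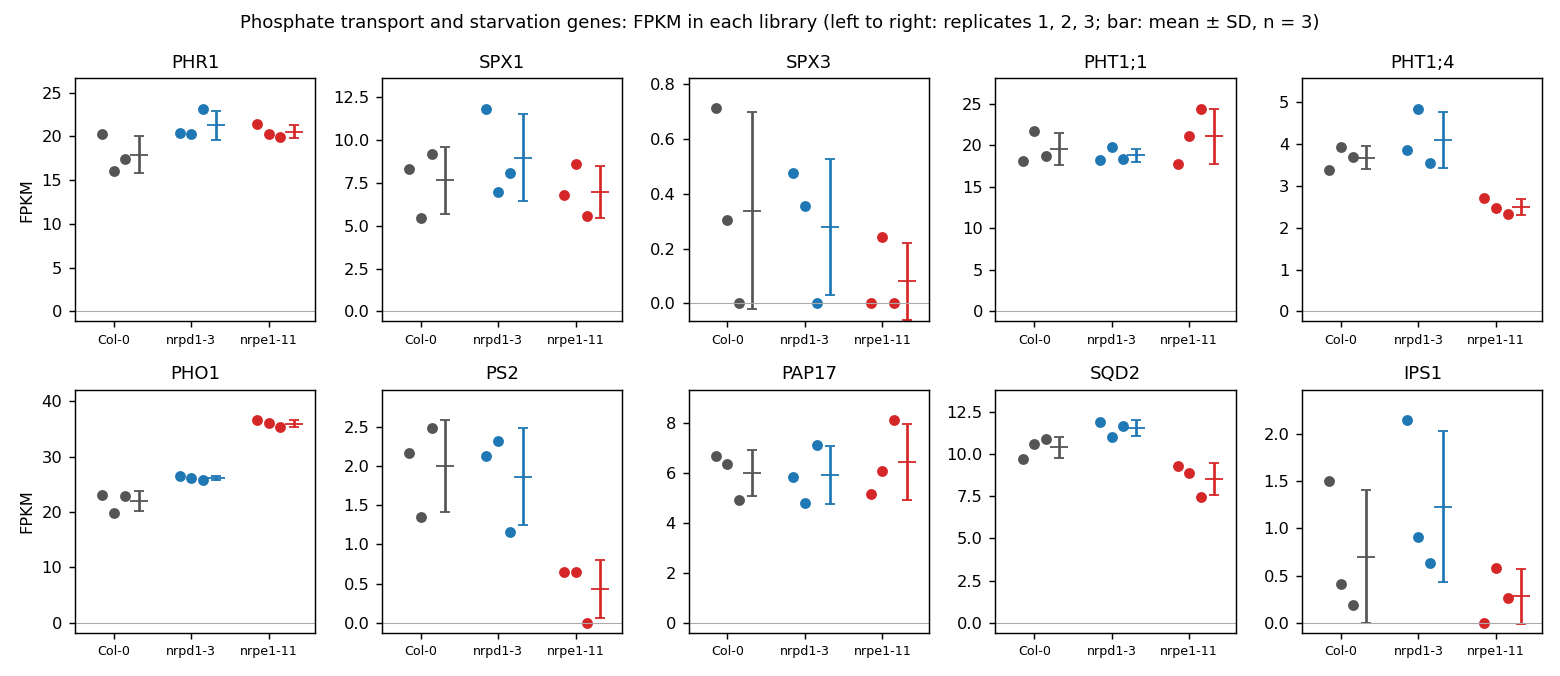
FPKM of each of the 10 genes (one panel each, linear axis) in the 9 libraries by genotype; points are libraries, and the bar beside them is the mean ± SD (n = 3), which reaches below 0 where libraries are near 0. PHO1 lies at 35.3 to 36.5 in nrpe1-11, above every other library, and PS2 at 0 to 0.650, below every other library.

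In Col-0 the level per length ran from PHO1, PHT1;1 and PHR1, whose libraries overlapped each other, down to SQD2, then SPX1 and PAP17, which overlapped, then PHT1;4, PS2, IPS1 and SPX3. IPS1 overlapped both PS2 and SPX3. PHO1 had a higher mean FPKM than 92.3% of the genes in the table, PHT1;1 than 91.3% and PHR1 than 90.4%. At the other end, PS2 exceeded 60.8%, IPS1 51.9% and SPX3 47.6% of the genes. PS2, IPS1 and SPX3, which rise in starved plants, were thus the least abundant of the 10 in these seedlings. Other genes that rise on starvation were higher, with SQD2 above 83.8%, SPX1 above 79.2% and PAP17 above 75.2% of the genes.

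Among the regulators, PHR1 was at 20.2, 16.1 and 17.5 FPKM in Col-0, at 20.4, 20.3 and 23.2 in the libraries labelled nrpd1-3, and at 21.4, 20.3 and 19.96 in nrpe1-11. The nrpd1-3 libraries lay above all Col-0 libraries, while Col-0 replicate 1 overlapped with nrpe1-11. The difference from Col-0 was 0.19 in nrpe1-11 (95% interval -0.05 to 0.44, adjusted p = 0.243) and 0.24 in nrpd1-3 (adjusted p = 0.681). The nrpe1-11 value was 0.0138 under median-ratio rescaling and 0.12 without Col-0 replicate 2. PHR1 (chr4:14132811-14135292, minus strand) overlaps the opposite-strand gene NPGR2. The sources used here do not say whether strand was used in counting, so reads from the shared stretch may not be told apart. The length of that stretch was not computed.

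SPX1 (chr5:6802282-6803655, plus strand), which binds PHR1 in phosphate-replete cells, was at 8.31, 5.47 and 9.19 FPKM in Col-0, at 11.8, 6.99 and 8.09 in nrpd1-3 and at 6.77, 8.58 and 5.56 in nrpe1-11. The groups overlapped, and the difference of nrpe1-11 from Col-0 was -0.11 (95% interval -0.56 to 0.34, adjusted p = 0.738). SPX3 (chr2:18606410-18607853, plus strand), a relative of SPX1 that strongly marks starvation, was at 0.715, 0.304 and 0 FPKM in Col-0, at 0.478, 0.358 and 0 in nrpd1-3 and at 0, 0.244 and 0 in nrpe1-11. These values rested on at most 804 aligned bases in a library. In the fit without the filter on low values, nrpe1-11 differed from Col-0 by -0.28 (95% interval -0.84 to 0.27, limma adjusted p = 0.703).

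PHO1 (chr3:8387398-8393467, minus strand) was at 23.1, 19.8 and 22.8 FPKM in Col-0, at 26.5, 26.1 and 25.8 in nrpd1-3, and at 36.5, 36.0 and 35.3 in nrpe1-11. The 3 groups did not overlap, and the order Col-0, nrpd1-3, nrpe1-11 held for every library. The means were 21.9 ± 1.83, 26.1 ± 0.360 and 36.0 ± 0.607 (SD, n = 3). PHO1 rose by 0.69 on the log2 scale in nrpe1-11 against Col-0 (SE 0.098, 95% interval 0.48 to 0.90, adjusted p = 0.00014), and by 0.63 to 0.73 when any 1 library was left out. With the libraries rescaled by their median ratios, which took the median of all tested genes from 0.17 to 0.02, the rise was 0.51, and it was still called.

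The root uptake transporter PHT1;1 (chr5:17399769-17402158, minus strand) was at 18.1, 21.7 and 18.7 FPKM in Col-0, at 18.3, 19.7 and 18.4 in nrpd1-3 and at 17.8, 21.1 and 24.4 in nrpe1-11. All groups overlapped, and the difference of nrpe1-11 from Col-0 was 0.10 (95% interval -0.17 to 0.37, adjusted p = 0.592), with a sign that turned under median-ratio rescaling (-0.08). PHT1;1 is uncertain on its own, because 41.9% of its 50-base windows occur unchanged in its neighbour PHT1;2 (AT5G43370, chr5:17415698-17417972, plus strand). The summed FPKM of both copies was 20.9 to 24.9 in Col-0, 21.0 to 22.3 in nrpd1-3 and 20.1 to 27.2 in nrpe1-11, and the sum differed from Col-0 by 0.09 in nrpe1-11 (adjusted p = 0.626).

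PHT1;4 (chr2:16257157-16260253, plus strand), a second uptake transporter of the root, was at 3.39, 3.94 and 3.70 FPKM in Col-0, at 3.87, 4.85 and 3.56 in nrpd1-3 and at 2.71, 2.46 and 2.32 in nrpe1-11. Every nrpe1-11 library lay below every other library. Against Col-0 the difference was -0.42 (95% interval -0.78 to -0.06, adjusted p = 0.0904), which missed the threshold. Under median-ratio rescaling it was -0.56 with an adjusted p of 0.0396. Of 9 listed PHT1 genes, 4 were at 0 in all libraries and 3 reached 1 FPKM in at least 3 libraries.

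PS2 (chr1:27464528-27466348, minus strand), a pyrophosphatase that releases phosphate from pyrophosphate, was at 2.17, 1.35 and 2.49 FPKM in Col-0, at 2.12, 2.32 and 1.16 in nrpd1-3, and at 0.649, 0.650 and 0 in nrpe1-11. Col-0 and nrpd1-3 overlapped, and all nrpe1-11 libraries lay below both. In nrpe1-11 PS2 fell by 1.09 on the log2 scale against Col-0 (SE 0.265, 95% interval -1.65 to -0.52, adjusted p = 0.00926), with values from -1.25 to -0.85 when any 1 library was left out. The level was low: the nrpe1-11 libraries held an estimated 896, 947 and 0 aligned bases on this gene, against 3488, 1787 and 3962 in Col-0. A pseudocount of 0.1 gave -2.42, and without the filter on low values the gene was not called (adjusted p = 0.0852). PS2 had passed that filter through Col-0 and nrpd1-3 libraries only.

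PAP17, a purple acid phosphatase induced by starvation and senescence, was at 6.69, 6.38 and 4.94 FPKM in Col-0, at 5.86, 4.82 and 7.13 in nrpd1-3 and at 5.17, 6.08 and 8.13 in nrpe1-11. The groups overlapped, and the difference of nrpe1-11 from Col-0 was 0.08 (95% interval -0.31 to 0.47, adjusted p = 0.780), which turned to -0.08 under median-ratio rescaling. PAP17 (chr3:6089381-6091231, plus strand) overlaps the opposite-strand gene AT3G17800, so reads from the shared stretch may not be told apart.

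SQD2 (chr5:86543-90117, minus strand), which makes the sulfolipid that replaces phospholipids in starved plastid membranes, was at 9.69, 10.6 and 10.9 FPKM in Col-0, at 11.9, 11.0 and 11.7 in nrpd1-3 and at 9.28, 8.86 and 7.45 in nrpe1-11. The 3 groups did not overlap, with nrpd1-3 highest and nrpe1-11 lowest. In nrpe1-11 the difference from Col-0 was -0.26 (95% interval -0.54 to 0.01, adjusted p = 0.154). It was -0.43 and called under median-ratio rescaling (adjusted p = 0.0223), and -0.39 and called after quantile normalization (adjusted p = 0.0371).

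IPS1 (chr3:3050989-3051530, plus strand) was at 1.505, 0.408 and 0.191 FPKM in Col-0, at 2.15, 0.911 and 0.636 in nrpd1-3 and at 0, 0.585 and 0.257 in nrpe1-11. The spread within a genotype was as wide as the gaps between genotypes, and no library held more than 1451 aligned bases on this gene. AT4, the noncoding RNA with a like miR399 site, was far more abundant, at 19.2, 11.7 and 15.9 FPKM in Col-0, 19.0, 14.1 and 18.5 in nrpd1-3 and 20.2, 12.9 and 17.0 in nrpe1-11. Its difference of nrpe1-11 from Col-0 was 0.10 (95% interval -0.29 to 0.49, adjusted p = 0.737). PHO2 ranged from 12.2 to 16.4 FPKM over the 9 libraries, with a difference of 0.19 (95% interval -0.06 to 0.45, adjusted p = 0.269), and the 6 MIR399 genes were at 0 in every library of this polyadenylated RNA.

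**Figure D2:**
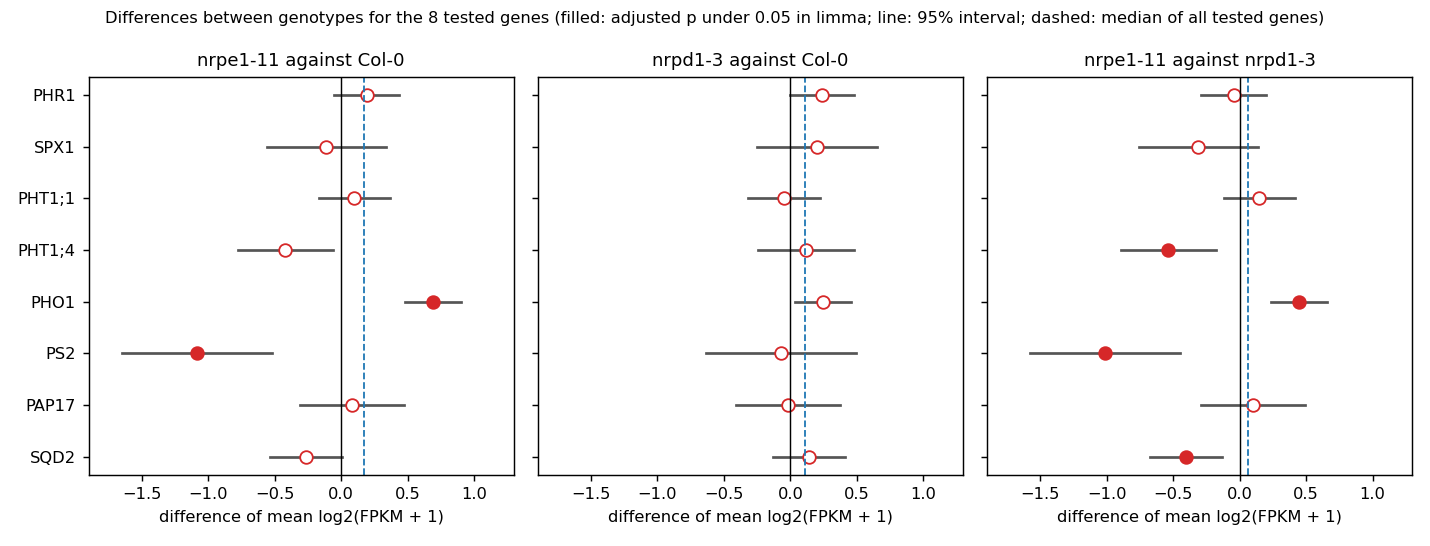
Difference of mean log2(FPKM + 1) for the 8 tested genes in the 3 comparisons; points are the limma estimates, lines the 95% intervals, filled points adjusted p under 0.05, and the dashed line the median of all tested genes. PHO1 (0.69) and PS2 (-1.09) are filled in nrpe1-11 against Col-0, no gene in nrpd1-3 against Col-0, and 4 genes in nrpe1-11 against nrpd1-3.

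In nrpd1-3 against Col-0, 0 of the 8 tested genes were called by limma, as were 0% of all tested genes. At an unadjusted p under 0.05, 1 of the 8 genes passed, which was PHO1 with a difference of 0.25 (95% interval 0.04 to 0.46, adjusted p = 0.681), beside 7.05% of all tested genes. PHO1, PHR1 and SQD2 lay higher in nrpd1-3 than in Col-0 without overlap of the libraries, a state shared by 11.7% of all tested genes in either direction. Without Col-0 replicate 2 the median difference of all tested genes moved from 0.11 to 0.04.

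The direct comparison of both mutants tests whether the signed differences from Col-0 differed between them. PHO1 was higher in nrpe1-11 than in nrpd1-3 by 0.45 (95% interval 0.24 to 0.66, adjusted p = 0.0055), and this call held without any 1 library. PS2 was lower by 1.01 on the log2 scale (estimate -1.01, adjusted p = 0.0166), PHT1;4 was lower with an estimate of -0.54 (adjusted p = 0.0450), and SQD2 with an estimate of -0.40 (adjusted p = 0.0465). PHT1;4 and SQD2 were not called against Col-0 in either mutant, and their estimates against Col-0 had opposite signs in the mutants (0.12 and 0.14 in nrpd1-3, -0.42 and -0.26 in nrpe1-11). These 4 calls among 8 tested genes stand beside 14.7% of all tested genes (6.19% higher and 8.52% lower). The genes were chosen with earlier results known, so this share is a description and not a test. The calls of PHT1;4 and SQD2 were lost without any 1 of the 6 libraries, and that of PS2 without nrpd1-3 replicate 1 (-0.94), nrpd1-3 replicate 2 (-0.90) or nrpe1-11 replicate 3 (-0.77).

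A list of 86 further phosphate genes was read for the rest of the pathway, of which 55 passed the filter, 31 did not, and 13 were at 0 in all libraries. In nrpe1-11 against Col-0, 9 rose, 9 fell and 37 did not pass the test. The split moved with the processing, to 3 higher and 13 lower under median-ratio rescaling, 3 and 11 after quantile normalization, and 3 and 7 without the filter on low values. The 9 fallers included PHT2;1, PHT4;1 and PHT3;2, phosphate transporters of chloroplasts and mitochondria, and the root surface phosphatase PAP10. The rises were spread over regulators, root growth genes, phosphatases, 1 transporter and 1 lipid gene, and the highest was 0.97 on the log2 scale. The called share was 32.7% against 21.7% of all tested genes, and the median difference was 0.14 against 0.17. The list was chosen with earlier results of these data known, so its shares are descriptions and not a test. The counts by role below rest on few genes each. They stand beside 14.2% of all tested genes called higher and 7.54% called lower.

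**Figure D3:**
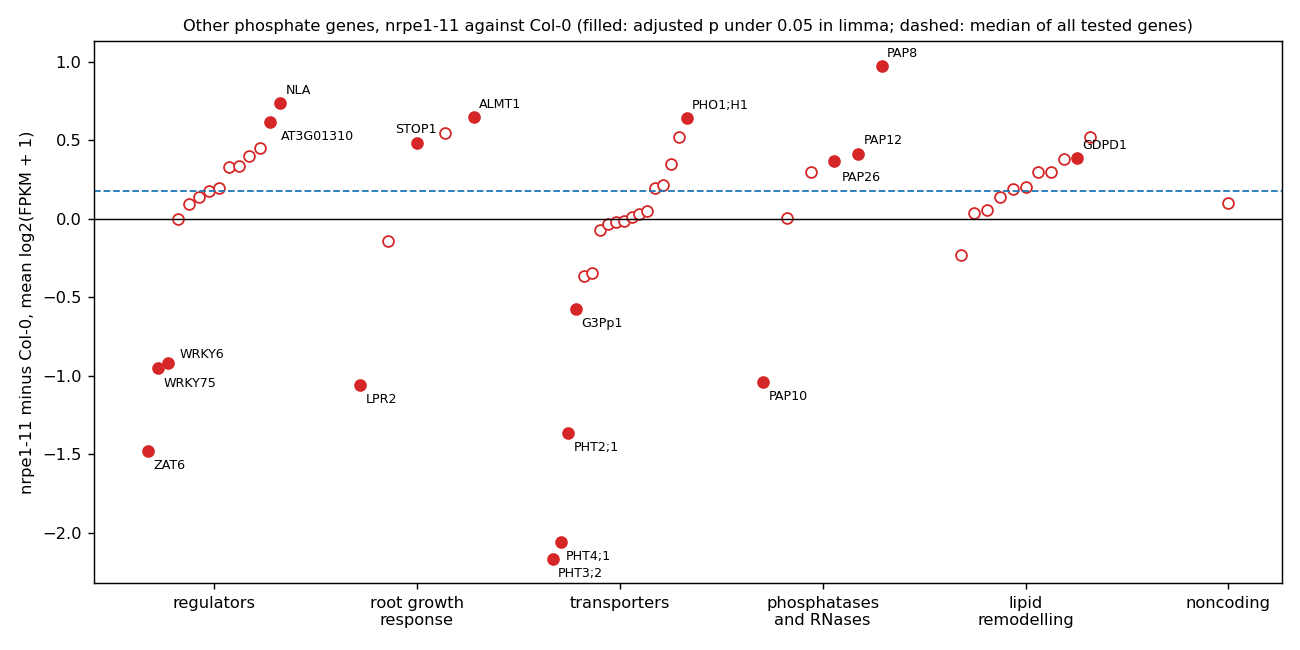
Difference of mean log2(FPKM + 1), nrpe1-11 minus Col-0, for the 55 tested genes of the wider phosphate list, grouped by role along the horizontal axis; filled points have an adjusted p under 0.05 and are named, and the dashed line is the median of all tested genes. PHT3;2 (-2.17) and PHT4;1 (-2.06) lie lowest and PAP8 (0.97) highest.

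Of 18 tested transporters, 4 fell and 1 rose. PHT2;1, a phosphate carrier of the chloroplast envelope, was at 29.1, 28.6 and 32.6 FPKM in Col-0 and at 10.04, 11.45 and 11.65 in nrpe1-11 (difference -1.37, adjusted p = 3.29e-07). PHT4;1, a chloroplast phosphate transporter, was at 13.8, 14.0 and 15.1 FPKM in Col-0 and at 2.30, 2.94 and 2.80 in nrpe1-11 (difference -2.06, adjusted p = 5.65e-08), and it overlaps an opposite-strand locus. The mitochondrial carrier PHT3;2 was at 2.53, 4.84 and 4.35 FPKM in Col-0 and at 0, 0.220 and 0 in nrpe1-11 (difference -2.17, adjusted p = 1.53e-05). PHT3;2 reached 1 FPKM only in Col-0 and nrpd1-3 libraries, so it passed the filter through the groups where it was higher. All nrpe1-11 libraries lay below all others for these 3 genes. The more abundant mitochondrial carrier PHT3;1 ranged from 56.3 to 64.6 FPKM in Col-0 and from 52.3 to 63.8 in nrpe1-11, so these groups overlapped. The glycerol-3-phosphate permease G3Pp1 fell (-0.57, adjusted p = 0.0266) and PHO1;H1, a homolog of PHO1, rose (0.64, adjusted p = 0.0427), and each call was kept in 2 of 6 fits that left out 1 library.

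**Figure D4:**
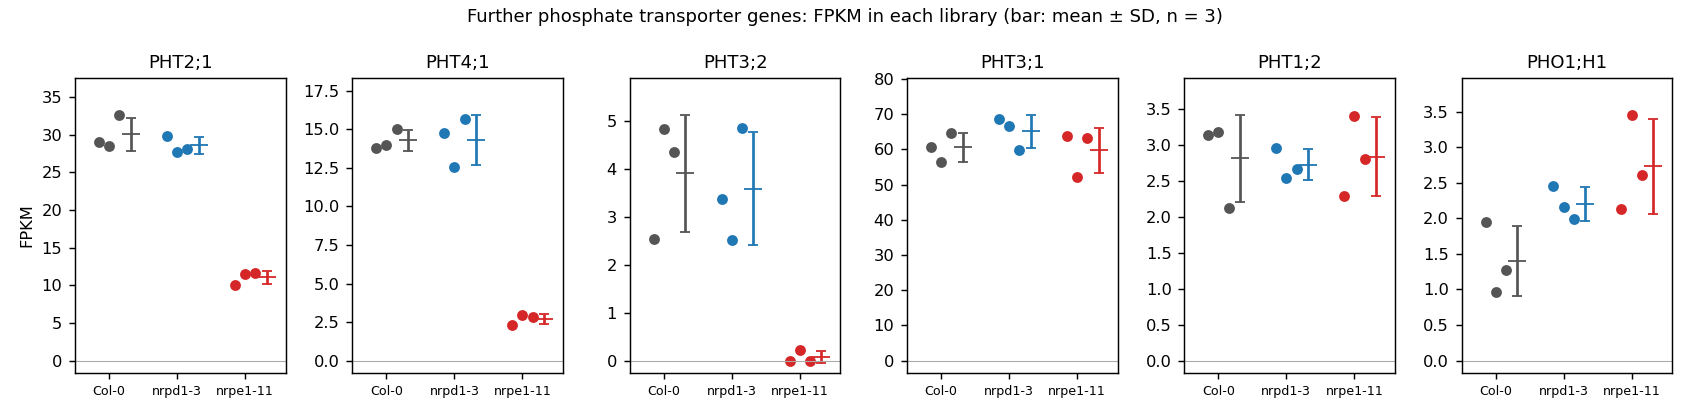
FPKM of 6 further phosphate transporter genes in the 9 libraries by genotype (linear axes); points are libraries and the bar is the mean ± SD (n = 3). PHT2;1, PHT4;1 and PHT3;2 are lower in all nrpe1-11 libraries than in any other library, while PHT3;1 and PHT1;2 overlap.

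Of 14 tested regulators, 3 fell and 2 rose. WRKY6, a transcription factor known to repress PHO1, was at 12.8, 13.8 and 14.9 FPKM in Col-0 and at 6.86, 7.28 and 6.37 in nrpe1-11 (difference -0.92, adjusted p = 9.94e-05). ZAT6, a zinc finger factor of root growth and phosphate balance, was at 8.17, 11.4 and 8.76 FPKM in Col-0 and at 3.08, 2.07 and 3.06 in nrpe1-11 (difference -1.48, adjusted p = 1.43e-05). WRKY75 also fell (-0.95, adjusted p = 0.0121), a call lost without Col-0 replicate 3 or nrpe1-11 replicate 1.

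The risers among the regulators were AT3G01310 and NLA. AT3G01310, annotated as a homolog of the yeast inositol pyrophosphate kinase Vip1, was at 34.4, 28.4 and 32.6 FPKM in Col-0 and at 49.8, 47.9 and 49.6 in nrpe1-11 (difference 0.61, adjusted p = 0.0011). NLA, a ubiquitin ligase that removes PHT1 proteins, was at 10.3, 8.06 and 9.02 FPKM in Col-0 and at 14.6, 15.8 and 17.0 in nrpe1-11 (difference 0.73, adjusted p = 0.0141). Its call was lost without nrpe1-11 replicate 3, and it overlaps an opposite-strand locus.

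Of 5 tested genes of the root growth response, 2 rose and 1 fell. LPR2, a multicopper oxidase related to the one that stops root growth on low phosphate, was at 16.4, 17.4 and 18.0 FPKM in Col-0 and at 6.67, 8.44 and 8.30 in nrpe1-11 (difference -1.06, adjusted p = 1.91e-05). STOP1, a transcription factor of the malate response, was at 40.5, 37.6 and 36.7 FPKM in Col-0 and at 57.4, 47.5 and 56.6 in nrpe1-11 (difference 0.48, adjusted p = 0.0055). The call of STOP1, which overlaps an opposite-strand locus, was lost under median-ratio rescaling. ALMT1, the malate channel that STOP1 activates, also rose (0.65, adjusted p = 0.0362), a call that only 1 of the 6 leave-one-out fits kept.

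Of 6 tested phosphatases and RNases, 3 rose and 1 fell. PAP8, a purple acid phosphatase, was at 5.11, 2.42 and 5.30 FPKM in Col-0 and at 9.52, 8.22 and 9.23 in nrpe1-11 (difference 0.97, adjusted p = 0.0062). PAP12 (0.41, adjusted p = 0.0200) and PAP26 (0.36, adjusted p = 0.0282) rose less, and their calls were lost under median-ratio rescaling, without nrpe1-11 replicates 1 or 2 for PAP12, and without Col-0 replicate 2 or nrpe1-11 replicates 1 or 3 for PAP26. PAP10, a phosphatase of the root surface, was at 14.8, 12.4 and 11.4 FPKM in Col-0 and at 5.22, 5.37 and 6.68 in nrpe1-11 (difference -1.04, adjusted p = 0.000306), and it overlaps an opposite-strand locus. Of the remaining tested genes, 1 of 11 in lipid remodelling was called (GDPD1, higher), and its call was lost without 5 of the 6 libraries. GDPD1 also overlaps an opposite-strand locus.

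The P1BS letters stood upstream of 4 of the 9 risers, GDPD1, NLA, PAP8 and AT3G01310, and of 1 of the 9 fallers, ZAT6. They also stood upstream of 10 of the 37 genes that did not pass the test, beside 10.6% of all tested genes. The counts are small, and their difference was not tested. These groups follow calls that move with the scaling: under median-ratio rescaling GDPD1 was lost and NLA, PAP8 and AT3G01310 were kept. In nrpd1-3 against Col-0, 0 of the 55 genes were called by limma, and 1 passed an unadjusted p under 0.05. Between the mutants 3 of the 55 were higher in nrpe1-11 (AT3G01310, STOP1 and GDPD1) and 10 lower, a called share of 23.6% beside 14.7% of all tested genes (6.19% higher and 8.52% lower). This share too is a description, because the list was chosen with earlier results known. Without the filter on low values 0 were higher and 10 lower. PHT4;1 (-2.06), PHT2;1 (-1.30), LPR2 (-1.11), PHT3;2 (-2.07), ZAT6 (-1.37) and PAP10 (-1.18) had the smallest adjusted p-values among the lower genes, and these 6 calls held without any 1 library. The calls of STOP1 and GDPD1 between the mutants were each kept in 2 of 6 such fits. The comparisons against Col-0 share the same 3 Col-0 libraries.

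Marker genes of the seedling's organs moved in the same libraries as these genes. Both organs were present by their markers, with 0 to 2 of 21 root markers and 0 of 9 leaf markers at 0 in a library. The marker lists were chosen with earlier results of these data known, so their counts are descriptions and not a test. Of 18 tested root markers 7 rose and 0 fell in nrpe1-11 against Col-0, with a median difference of 0.52, beside 14.2% of all tested genes called higher and a median of 0.17. Under median-ratio rescaling 3 root markers rose and 0 fell, with a median of 0.41, and without the filter 1 of 21 rose. The summed root markers ran from 372 to 493 FPKM in Col-0, from 449 to 546 in nrpd1-3 and from 602 to 621 in nrpe1-11. Of 9 tested leaf markers 7 fell, from RBCS1A (-0.36) to LHCB3 (-1.97), beside 7.54% of all tested genes called lower. FAMA rose (0.62) and GAPA1 was not called (0.06). The summed leaf markers ran from 6671 to 7293 FPKM in Col-0, from 6747 to 6987 in nrpd1-3 and from 4427 to 4918 in nrpe1-11. RBCS1A alone held 3131 to 3658 FPKM in Col-0 and 2393 to 2739 in nrpe1-11. The marker sums moved with the rise of PHO1, which is transcribed in the root vasculature, and with the falls of PHT2;1 and PHT4;1, which serve chloroplasts. Of the root uptake transporters neither PHT1;1 (0.10) nor PHT1;4 (-0.42) was called, and the root surface phosphatase PAP10 fell (-1.04). The part of the marker sums in these results was not tested. In whole seedlings a change in the share of cells of a type and a change in RNA per cell cannot be told apart.

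**Figure D5:**
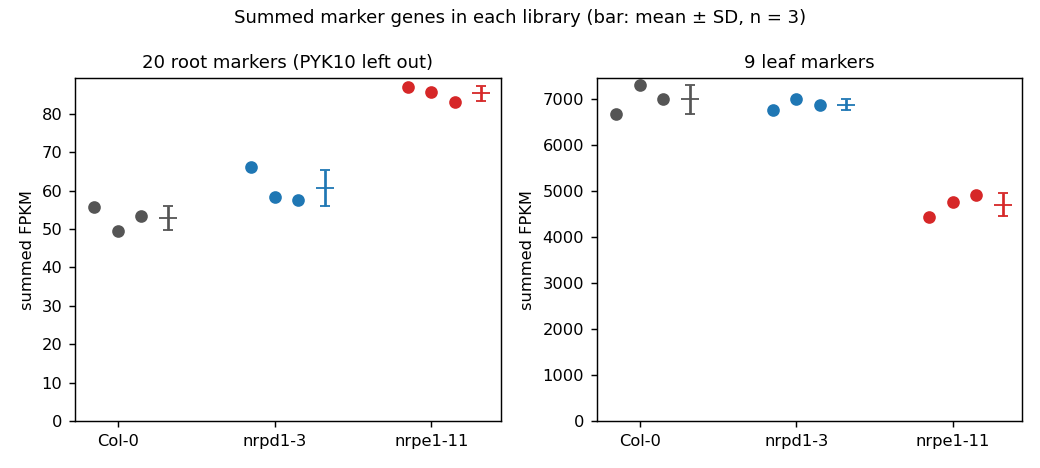
Summed FPKM of 20 root markers without the very abundant PYK10 (left) and of 9 leaf markers (right) in each library by genotype, on linear axes from 0; points are libraries and the bar is the mean ± SD (n = 3). The root sums are highest in nrpe1-11 (83.2 to 87.1, against 49.4 to 55.7 in Col-0) and the leaf sums lowest.

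The genes whose log2(FPKM + 1) ran closest to PHO1 over the 9 libraries were AT5G27850 (Pearson r = 0.987), BSK1 (0.987) and AT14A (0.985), and 218 genes had an r above 0.95. For PS2 they were AT2G32030 (0.965), PBP1 (0.956) and FAD8 (0.952), and 4 genes had an r above 0.95. The libraries share their genotype groups and scaling, so these values are descriptions of likeness over 9 points.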

How the data were processed

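Per the labels' protocols, RNA was extracted with an RNeasy kit, polyadenylated RNA was isolated on Dynabeads and libraries were made with a NEXTflex kit. The TAIR10 genome build, StringTie 2.1.7, HISAT2 2.2.1 and fastp 0.23.2 were used, per the submitters' processing notes. Strand setting and read length are not given in the sources used here. The authors deposited FPKM values in 1 table of 37929 lines for 37898 genes, with 1 gene on 32 lines, of which the line with most values above 0 was kept.

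The rest was computed here from the deposited FPKM values. Depth was estimated from low values, of which 91.3% to 96.2% lay within 0.1 of a whole step. Log2(FPKM + 1) of the 18212 genes with at least 1 FPKM in at least 3 of 9 libraries was fitted in limma 3.58.1 (R 4.3.3) with 1 mean per genotype and an intensity trend, two-sided, adjusted by Benjamini-Hochberg over all tested genes. The fit was tested on simulated data. Gene coordinates, symbols and sequences came from RefSeq TAIR10.1. Sites of miR399 were searched with up to 4 mismatches and 0 or 3 unpaired bases.

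All 10 genes are named, with up to 6 genes of the wider list per direction and comparison with the smallest adjusted p, further called genes of that list by their role, and for the 2 of the 10 with the smallest adjusted p the 3 genes closest by Pearson correlation. PHT3;1, PHO2 and AT4 were named outside that rule, with their values known. The 10 genes, the wider list and the marker lists were chosen with earlier results of these data known. Alternatives were another pseudocount, filter, scaling, block and set of libraries, and each library left out in turn. The marker counts under these settings were added after seeing the data.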

Additional observations from a re-analysis of the deposited data

How the results depend on the processing

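The rises and falls of PHO1 and PS2 in nrpe1-11 against Col-0 kept their direction under every alternative run, and PHO1 stayed called. Of the 10 genes, the number called in that comparison moved from 2 to 1 without a filter on low values and to 1 with a mean FPKM of at least 5, where PS2 was not tested, and to 4 under median-ratio rescaling, where PHT1;4 and SQD2 were called too. In nrpe1-11 against nrpd1-3 it moved from 4 to 2 with a mean FPKM of at least 5 and to between 1 and 2 when 1 library was left out. Without a filter the wider list went from 18 to 10 calls in nrpe1-11 against Col-0. All genes then went from 3955 to 2173 in nrpe1-11 against Col-0, from 0 to 2 in nrpd1-3 against Col-0 and from 2679 to 1668 between the mutants. Both the number of genes adjusted over and the estimate of the spread change in that setting.

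Differences near 0 changed sign. In nrpe1-11 against Col-0, median-ratio rescaling and quantile normalization gave -0.0794 and -0.03 for PHT1;1, -0.0821 and -0.0472 for PAP17, and -0.091 and -0.0433 for PHT1;1 and PHT1;2 summed. Leaving out 1 library gave -0.0052 to 0.21 for PHT1;1, -0.0748 to 0.21 for PAP17, -0.31 to 0.0217 for SPX1 and -0.0042 to 0.21 for the sum. In nrpd1-3 against Col-0 it gave -0.0973 to 0.0268 for PHT1;1, -0.14 to 0.10 for PAP17, -0.24 to 0.12 for PS2 and -0.0923 to 0.0297 for the sum. Between the mutants it gave -0.0566 to 0.23 for PAP17 and -0.0761 to 0.0143 for PHR1. The call of PHT1;4 between the mutants was lost after quantile normalization (adjusted p = 0.0517) and with only the 6 libraries compared (adjusted p = 0.0597). The cause was not tested.

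Libraries with the same replicate number deviated from their group means with correlations of -0.07 to 0.15. For libraries with different numbers the correlations were -0.12 to 0.07. The labels do not say what the numbers share, and these values cannot settle whether they pair the samples. With the replicate number as a block, 2, 0 and 4 of the 10 genes were called in the 3 comparisons, as without it, 19, 0 and 15 of the wider list, and 4428, 0 and 2996 of all genes, and the sum of PHT1;1 and PHT1;2 differed by 0.09, -0.05 and 0.14. Depth limits SPX3, IPS1 and PS2 most.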
